A study of Mus musculus with 20 samples.

Results

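The SR genes encode serine- and arginine-rich splicing factors, a family of RNA-binding proteins that mark exons and recruit the spliceosome. The members were taken by symbol and mapped to their gene identifiers with GENCODE M21, namely Srsf1, Srsf2, Srsf3, Srsf4, Srsf5, Srsf6, Srsf7, Srsf9, Srsf10 and Srsf11. They are 10 of the 55471 genes in the count table, and each also has 1 row in a second table of PROMPT counts. A PROMPT is a promoter upstream transcript, a short-lived RNA made just upstream of a gene's start, usually in the opposite direction. All 10 genes and all 10 PROMPT regions passed the filter on low counts, which used the libraries of all groups.

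The libraries are stranded total RNA from SIMS cells, an established mouse salivary gland line, grown in DMEM with 10% FBS. There were 5 groups of 4 libraries. They were the unedited wild-type cells, a line with a Cas9 knockout (KO) of Btbd7, and 3 clones with a Cas9 KO of Zcchc8, called clone 1, clone 2 and clone 3. Btbd7 encodes a BTB-domain protein of branching salivary epithelium, and its KO is the edited line in which Zcchc8 was not targeted. Each Zcchc8 KO group is 1 clone, and the labels do not say that the 4 libraries of a group came from separate cultures, so p-values measure the spread between these libraries, which may be technical. Every Zcchc8 KO comparison uses the same wild-type libraries.

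ZCCHC8 is the scaffold of the NEXT complex, which brings newly made, unprocessed nuclear RNA to the RNA exosome for decay, and PROMPTs are among its known targets. SR proteins carry 1 or more RNA recognition motifs and a tail rich in arginine and serine whose phosphorylation by SRPK and CLK kinases controls their nuclear import and activity. Many SR genes also limit their own level by splicing in exons that send the transcript to nonsense-mediated decay. Both the counts over each gene and the counts just upstream of it therefore bear on them here.

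Gene counts summed to between 6833258 and 17771804 per library, and PROMPT counts to between 1569548 and 3966608 in the 19 libraries of that table, which does not hold wild-type replicate 1. Wild-type replicate 1 stood apart in the gene table. It detected 14245 genes where the other wild-type libraries detected 17442 to 18791. Of the tested genes 77.4% lay outside the range of those libraries, and 34.4% to 48.5% did so when another wild-type library was set against its rest. The counts of SR genes called and the main gene-count values are therefore given with and without it. Zcchc8 itself was at 65.1 ± 2.92 CPM (gene counts scaled to library size; SD, n = 4) in wild type. Clones 1, 2 and 3 stood at 60.3 ± 4.28, 23.3 ± 1.35 and 54.6 ± 4.84 CPM. By edgeR it fell by 1.48 on the log2 scale in clone 2 (adjusted p = 5.19e-13) and by 0.26 in clone 3 (adjusted p = 0.0135). In clone 1 the change was -0.11 (adjusted p = 0.291), so RNA counts do not check the edit there. Btbd7 was at 202 ± 7.64 CPM in wild type and 99.2 ± 3.23 in the Btbd7 KO. Epithelial markers, 10 genes, summed to 3372 to 5511 CPM per library. Of these Krt5 was at 0 to 1.37 CPM, and the lowest value of any of the other 9 was 50.1 CPM, for Cldn7. By contrast, the 4 endothelial markers summed to at most 1.15 CPM and the 4 myoepithelial and smooth muscle markers to at most 1.45 CPM. The 7 fibroblast markers summed to 10.2 to 35.2 CPM, with Col1a1 at 8.65 to 26.6 CPM. The 5 immune markers summed to 4.09 to 13.4 CPM, with Cd68 at 4.02 to 12.9 CPM. Of 7 salivary acinar markers, the water channel Aqp5 stood at 108 to 187 CPM in every library, whereas Bpifa2 and Smr3a were at 0 in all libraries and 4 of the 7, these included, were under 1 CPM everywhere.

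The sequences just upstream of 4 members are shown as examples, and they lead up to gene starts whose upstream counts are described below. Where the PROMPT counts fall relative to these windows is not given in the sources used here. They are RefSeq promoter windows on GRCm38.p6, cut to the bases that precede the GENCODE gene start, 5′ to 3′ on the gene's strand. Capitals mark matches, on either strand, to 4 short motifs that bear on initiation, splicing or 3′ end formation, namely TATANA (a core promoter box), CCAAT (the box bound by NF-Y), AATAAA (the polyadenylation hexamer) and GGTAAG (a form of the 5′ splice site).

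Srsf4, chr4:131873387-131873616, + strand, no motif match, 77.4% GC: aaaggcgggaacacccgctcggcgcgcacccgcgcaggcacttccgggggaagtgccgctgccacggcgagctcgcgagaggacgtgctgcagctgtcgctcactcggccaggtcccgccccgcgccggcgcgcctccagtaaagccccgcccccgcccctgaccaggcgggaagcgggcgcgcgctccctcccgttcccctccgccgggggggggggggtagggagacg
Srsf6, chr2:162931258-162931507, + strand, AATAAA on the opposite strand, 68.4% GC: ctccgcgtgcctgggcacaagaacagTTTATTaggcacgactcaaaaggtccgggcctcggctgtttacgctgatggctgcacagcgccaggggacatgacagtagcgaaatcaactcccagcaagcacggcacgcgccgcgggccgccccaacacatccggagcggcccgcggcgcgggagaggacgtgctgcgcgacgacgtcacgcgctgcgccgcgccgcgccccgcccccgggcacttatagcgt
Srsf3, chr17:29032410-29032627, + strand, CCAAT on the opposite strand, 71.1% GC: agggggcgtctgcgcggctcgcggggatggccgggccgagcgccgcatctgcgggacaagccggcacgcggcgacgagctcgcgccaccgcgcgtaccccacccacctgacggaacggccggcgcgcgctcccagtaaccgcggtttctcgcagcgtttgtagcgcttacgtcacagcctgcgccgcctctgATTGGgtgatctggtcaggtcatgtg
Srsf5, chr12:80945249-80945498, + strand, GGTAAG on the gene's strand, 56.8% GC: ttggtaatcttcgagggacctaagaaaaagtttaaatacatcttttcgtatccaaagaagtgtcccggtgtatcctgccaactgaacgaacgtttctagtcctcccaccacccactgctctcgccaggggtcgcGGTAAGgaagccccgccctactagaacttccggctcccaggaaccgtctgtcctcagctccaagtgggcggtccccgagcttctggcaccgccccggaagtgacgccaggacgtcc

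Of the members not shown, Srsf2 had CCAAT and TATANA on the gene's strand, and Srsf7 had TATANA on both strands. The windows of Srsf1, Srsf9 and Srsf11 had no motif match, and Srsf10 had no usable window. Among 32536 RefSeq promoter windows, 33.8% held CCAAT on at least 1 strand, 22.3% TATANA, 18% AATAAA and 7.75% GGTAAG. A match is a description of these letters and not evidence that the site is used.

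PROMPT counts were higher in the Zcchc8 KO clones upstream of 9 of the 10 SR genes and lower upstream of none. The test was edgeR's quasi-likelihood test of the mean of the 3 clones against wild type, with Benjamini-Hochberg adjustment over all 17655 regions tested, and a region was called at an adjusted p under 0.05. Over all regions tested 39.9% were called higher and 3.31% lower, and 57.9% of the regions of protein-coding genes were called higher. A region could pass the filter on low counts, and so enter these shares, through its Zcchc8 KO counts alone. Srsf6 is an example, with at most 3 PROMPT counts in a wild-type library and 1 in a Btbd7 KO library. The median log2 fold change was 2.72 over the 10 members and 0.45 over all regions. Srsf1, Srsf3, Srsf4, Srsf5, Srsf6, Srsf7, Srsf9 and Srsf10 were called higher in the mean and in each clone alone. Srsf2 was called in clones 1 and 2 and not in clone 3, and Srsf11 was not called in any clone. The clones thus gave 9, 9 and 8 members higher, where 39.3%, 36.0% and 36.7% of all regions were higher.

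**Figure D1:**
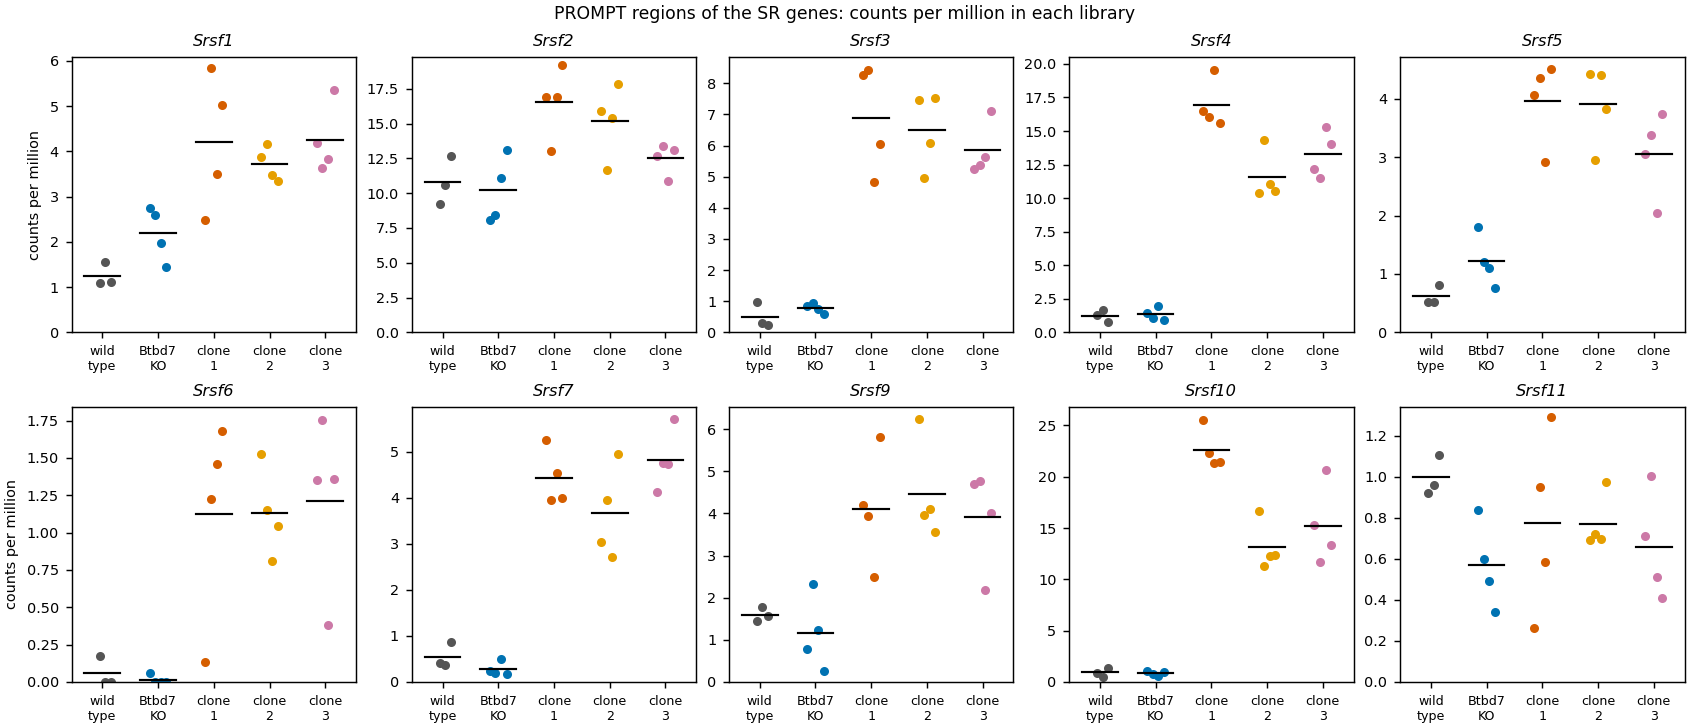
PROMPT level in CPM for each SR gene, 1 panel a gene with its own vertical axis from 0; each point is 1 library of wild type (3 libraries), the Btbd7 KO or Zcchc8 KO clone 1, 2 or 3 (4 each), and the bar is the group mean. The 12 Zcchc8 KO points of Srsf10 lie between 11.3 and 25.6 while its wild-type and Btbd7 KO points stay at or below 1.40, and the Zcchc8 KO points of Srsf11 overlap those of both control groups.

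Srsf10, an SR-like protein that acts as a splicing repressor when it is dephosphorylated, had the largest fitted PROMPT increase of the members together with Srsf6, from which it did not differ by more than 1 SE. Its wild-type libraries stood at 0.865, 0.517 and 1.40 CPM and the Btbd7 KO libraries at 1.08, 0.733, 0.616 and 1.02 CPM. Clone 1 stood at 25.6, 22.3, 21.3 and 21.4 CPM, clone 2 at 16.6, 11.3, 12.3 and 12.3, and clone 3 at 15.3, 11.7, 20.7 and 13.3. No Zcchc8 KO library overlapped any control library, and all 4 clone 1 libraries were above every library of the other clones. The log2 fold change of the mean was 4.10 (edgeR adjusted p = 4.9e-24, SE 0.23). Srsf10 was also the only member whose PROMPT differed between the clones by edgeR's test of equal clones, with log2 fold changes of 4.56, 3.75 and 3.98 (adjusted p = 0.000651). That test called 10.9% of all regions.

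Srsf4, one of the larger SR proteins, with paired RNA recognition motifs, had wild-type PROMPT values of 1.27, 1.70 and 0.758 CPM. The Btbd7 KO libraries stood at 1.44, 1.07, 1.97 and 0.931 CPM, which overlaps the wild-type range. Over the 12 Zcchc8 KO libraries the lowest, median and highest values were 10.4, 14.2 and 19.6 CPM, with no overlap with the controls. This was a log2 change of 3.49 (SE 0.22; edgeR adjusted p = 1.69e-21). The window printed above for this gene has no annotated gene within it or in the 5000 bases upstream.

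Srsf3, the smallest member of the family and an adaptor for mRNA export, had only 17, 4 and 4 PROMPT counts in wild type, or 0.981, 0.295 and 0.233 CPM. The Btbd7 KO libraries held 14, 14, 6 and 7 counts, and the Zcchc8 KO libraries between 33 and 108. The KO libraries ranged from 4.82 through a median of 6.07 to 8.43 CPM, all above every control. Fitted, this was a log2 change of 3.61 (SE 0.33; edgeR adjusted p = 8.36e-15). Without wild-type replicate 2, which gave 17 of the 25 wild-type counts, it was 4.56.

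Upstream of Srsf6, a regulator of alternative splicing in epithelia among other tissues, the wild-type libraries held 3, 0 and 0 counts and the Btbd7 KO libraries 1, 0, 0 and 0. The Zcchc8 KO clones held 1, 9, 10 and 13 counts in clone 1, 11, 16, 14 and 15 in clone 2, and 19, 14, 3 and 20 in clone 3. The 145 KO counts against 3 wild-type counts gave a ratio of 18.3 after scaling to library size, with an exact 95% interval of 6.14 to 89.7 that covers counting error only. The fitted log2 fold change was 4.01 (edgeR adjusted p = 8.44e-05, SE 0.86). Without wild-type replicate 2, which holds all 3 wild-type counts, the fit gave 6.75, a value that has wild type at 0 and depends on the prior count. One clone 1 library, at 0.131 CPM, fell below the highest wild-type library at 0.173 CPM, so the groups overlap by that 1 library.

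Srsf7, which carries a zinc knuckle beside its RNA recognition motif and shares the export role of Srsf3, stood at 0.404, 0.369 and 0.874 CPM in wild type. The Btbd7 KO libraries stood at 0.240, 0.200, 0.493 and 0.169 CPM. Over the Zcchc8 KO libraries the lowest, median and highest values were 2.72, 4.32 and 5.70 CPM. This gave a log2 change of 2.92 (SE 0.35; edgeR adjusted p = 1.17e-10). Srsf5, a member with paired RNA recognition motifs that was first found as an insulin-induced gene in liver, stood at 0.519, 0.517 and 0.816 CPM in wild type and at 2.04, 3.78 and 4.51 CPM as the lowest, median and highest of the Zcchc8 KO libraries. Its log2 fold change was 2.52 (edgeR adjusted p = 7.37e-09, SE 0.35). For both genes no Zcchc8 KO library overlapped a control library.

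Srsf1, the founding member of the family and an oncogenic splicing factor when raised, changed less. Its wild-type PROMPT values were 1.10, 1.55 and 1.11 CPM and its Btbd7 KO values 2.76, 2.60, 1.97 and 1.44 CPM. The Zcchc8 KO libraries ranged from 2.49 through a median of 3.85 to 5.85 CPM, so all lay above wild type and 1 lay below the highest Btbd7 KO libraries. Against wild type the log2 fold change was 1.71 (edgeR adjusted p = 1.49e-06, SE 0.29), and it was 0.86 (SE 0.24, adjusted p = 0.00209) against the Btbd7 KO. Srsf9, whose arginine-serine tail is short, rose from 1.44, 1.77 and 1.57 CPM in wild type to a lowest, median and highest value of 2.17, 4.06 and 6.23 CPM. Its highest Btbd7 KO library, at 2.33 CPM, overlapped that range, and the log2 fold change was 1.38 (edgeR adjusted p = 0.000272, SE 0.32).

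Srsf2, a nuclear speckle protein and one of the classical exon-definition factors, stood at 9.23, 10.6 and 12.7 CPM in wild type. The Btbd7 KO libraries stood at 8.09, 8.47, 11.1 and 13.1 CPM. In the Zcchc8 KO the lowest, median and highest values were 10.9, 14.4 and 19.2 CPM, which overlaps both control groups. The log2 fold change was 0.44 (edgeR adjusted p = 0.00959, SE 0.14), with 0.61 in clone 1, 0.49 in clone 2 and 0.21 in clone 3, the last with an adjusted p of 0.351. The call rests on single libraries and on scaling. Without wild-type replicate 2 the value was 0.33 (adjusted p = 0.105), and with scaling factors computed within the PROMPT table, which set the median region near 0 (0.02), it was 0.04 (adjusted p = 0.835). The other 8 calls held under that scaling.

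Srsf11, a more divergent SR protein that interacts with spliceosome components, did not share the change. Its PROMPT stood at 0.923, 0.960 and 1.11 CPM in wild type and at 0.839, 0.600, 0.493 and 0.339 CPM in the Btbd7 KO. The Zcchc8 KO libraries ranged from 0.262 through 0.703 to 1.29 CPM. The Zcchc8 KO libraries overlapped both control groups, whereas every Btbd7 KO library lay below every wild-type library. For the Zcchc8 KO mean the log2 fold change was -0.45 (edgeR adjusted p = 0.504, SE 0.49), and against the Btbd7 KO it was 0.32 (adjusted p = 0.616). The 92 KO counts against 48 in wild type gave a ratio of 0.725, with an exact 95% interval of 0.506 to 1.05 that covers counting error only. On that error alone the interval lies below the increases fitted for each of the other 9 members. The fitted SE of 0.49 is larger than the log2 increase of 0.44 at Srsf2, and a difference between these members was not tested.

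In the Btbd7 KO no PROMPT of the 10 was called by edgeR in either direction, where 3.04% of all regions were called. DESeq2 also called none. At an unadjusted p under 0.05 there were 3 of 10, where 16.2% of all regions were, with log2 fold changes of 0.84 for Srsf1, 0.99 for Srsf5 and -1.10 for Srsf7, and edgeR adjusted p-values of 0.174, 0.19 and 0.28. With the Btbd7 KO in place of wild type as the control, the same count of 9 members was called higher in the Zcchc8 KO, against 45.6% of all regions.

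**Figure D2:**
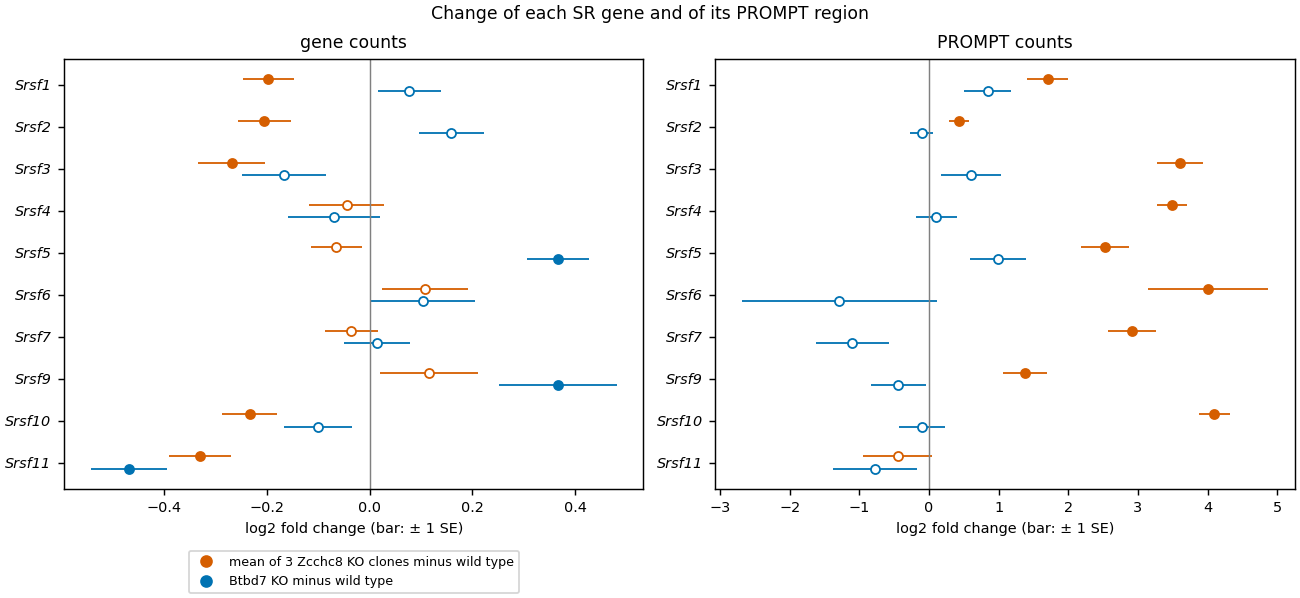
Log2 fold change of each SR gene from gene counts (left) and of its upstream region from PROMPT counts (right), with bars of 1 SE; orange is the mean of the 3 Zcchc8 KO clones and blue the Btbd7 KO, both against wild type, and filled points have an edgeR adjusted p under 0.05. The horizontal scales differ: the orange points span -0.33 to 0.12 on the left and -0.45 to 4.10 on the right.

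Relative to the counts over the gene itself, upstream counts were higher in the Zcchc8 KO at most members. The ratio depends on the lengths of both regions and is compared only within a gene. Srsf4 went from 31.7 ± 9.65 PROMPT counts per 1000 gene counts in wild type (SD, n = 3) to 446 ± 79.5, 316 ± 71.5 and 333 ± 53.7 in clones 1, 2 and 3 (n = 4 each). Srsf10 went from 7.72 ± 3.41 to 209 ± 17.0, 118 ± 23.2 and 143 ± 38.4, and Srsf3 from 1.97 ± 1.75 to 28.6 ± 6.90, 26.1 ± 5.0 and 23.8 ± 3.60. Srsf11 stood at 6.07 ± 0.527 in wild type and at 4.92 ± 2.65, 5.77 ± 1.35 and 5.17 ± 2.34 in the clones. All 12 Zcchc8 KO libraries lay above all 3 wild-type libraries for 8 of the 10 members, Srsf6 and Srsf11 being the others, and this held for 33.3% of the 11386 genes tested in both tables. The same 8 also lay above all 7 control libraries, as did 28.2% of genes. No member had all 4 Btbd7 KO libraries above wild type, against 4.35% of genes. The median gene had 96.6 PROMPT counts per 1000 gene counts in wild type and 221, 193 and 201 in the clones. No test was made on the ratio.

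Annotated genes on the opposite strand that start just upstream of a member, or start inside it and overlap its start, were also counted in the gene table. Reads from an opposite-strand gene can enter a PROMPT row, to an extent that differed between pairs. The PROMPT row of Mfsd11, which lies head to head with Srsf2 and overlaps it, held between 95.6% and 101% as many counts as the Srsf2 gene row in the 19 libraries. That of Gm11508, which overlaps Srsf1, held 69.6% to 75.5% as many as the Srsf1 gene row. The Srsf11 PROMPT row, however, held 48 wild-type and 92 Zcchc8 KO counts. Lrrc40, which starts 23 bases upstream of Srsf11, held 3071 and 6295 in the same libraries. The extent of the PROMPT regions and the counting settings are not given in the sources used here.

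Gm16196, a long non-coding RNA annotated as sharing a bidirectional promoter with Srsf3, starts 60 bases upstream of it, at chr17:29014642-29032568 on the - strand (GRCm38). In the gene table it rose from 0.478 ± 0.370 CPM in wild type (SD, n = 4) to 6.67 ± 2.00, 6.14 ± 1.12 and 5.55 ± 1.07 CPM in clones 1, 2 and 3, a log2 change of 3.65 (SE 0.35; edgeR adjusted p = 1.15e-08). It was 4.26 (adjusted p = 1.35e-12) without wild-type replicate 1. Over the 12 Zcchc8 KO libraries its gene row held 779 counts and the Srsf3 PROMPT row 807, and per library the median of the former over the latter was 0.977. The increase upstream of Srsf3 was therefore counted as 1 observation. Gm20337, annotated in the same way and starting 108 bases upstream of Srsf5, rose from 0.824 ± 0.428 CPM to 2.38 ± 0.918, 2.41 ± 0.459 and 2.00 ± 0.605 CPM, a log2 change of 1.45 (SE 0.36; edgeR adjusted p = 0.00264) that was 1.86 without that library. It held 293 counts in the Zcchc8 KO libraries against 463 in the Srsf5 PROMPT row. Ttc39d, a protein-coding gene starting 153 bases upstream of Srsf7, held 10 counts in all in the wild-type libraries and between 2 and 18 in each Zcchc8 KO library. Its log2 fold change was 2.10 (edgeR adjusted p = 0.0261, SE 0.73), and without wild-type replicate 1 it was 1.74 (adjusted p = 0.0532), which ends the call.

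**Figure D3:**
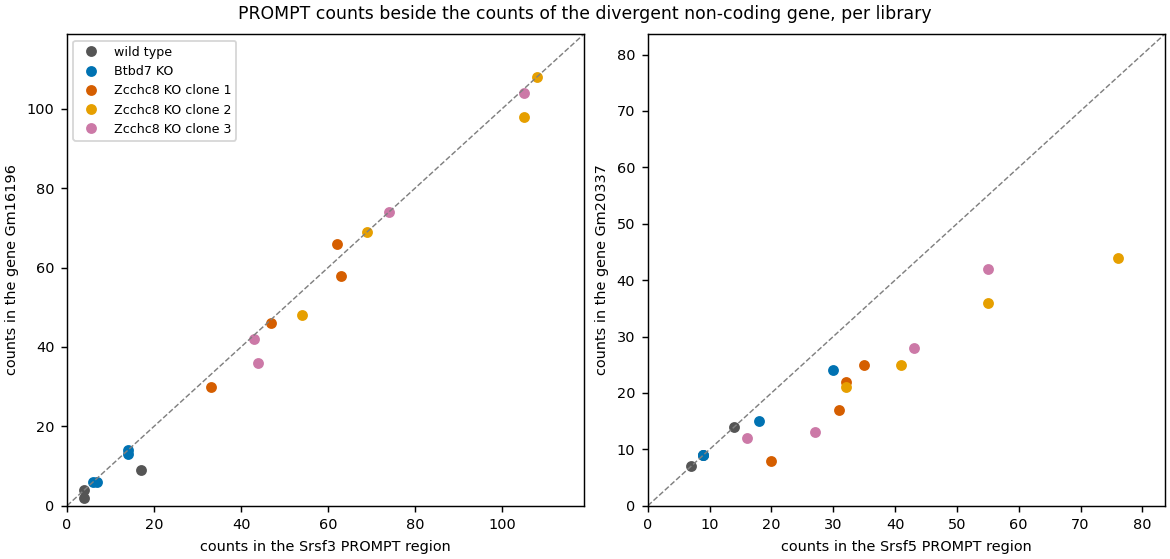
Counts in the gene row of the divergent non-coding gene (vertical) against counts in the PROMPT row of the SR gene (horizontal), 1 point a library, 19 libraries, for Srsf3 with Gm16196 (left) and Srsf5 with Gm20337 (right); the dashed line marks equal counts. The Srsf3 points lie close to the line, with a median of 0.977, and the Srsf5 points lie at or below it, with a median of 0.714.

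The protein-coding neighbours of Srsf2 and Srsf11 behaved otherwise. Mfsd11, a transporter-family gene, was at 41.3 ± 7.10 CPM in wild type and at 56.1 ± 7.41, 53.5 ± 7.73 and 40.9 ± 2.89 CPM in the clones, a log2 change of 0.26 (SE 0.09; edgeR adjusted p = 0.031) that differed between the clones (adjusted p = 0.00863). It was 0.40 without wild-type replicate 1. In the Srsf2 PROMPT row that test of equal clones made no call (adjusted p = 0.204). Mettl23, also protein-coding and on the opposite strand, overlaps Srsf2 by 3194 bases and runs past its start. Its log2 fold change was 0.03 (edgeR adjusted p = 0.837). How many counts of the Srsf2 PROMPT row come from mature Mfsd11 or Mettl23 RNA was not tested. Lrrc40, which starts 23 bases upstream of Srsf11, fell by 0.58 on the log2 scale (edgeR adjusted p = 8.67e-06, SE 0.09), and by 0.38 without wild-type replicate 1 (adjusted p = 1.16e-05). It also fell by 0.47 in the Btbd7 KO (adjusted p = 0.00294), and against the Btbd7 KO the Zcchc8 KO value was -0.10 (adjusted p = 0.377). Upstream of Srsf1, Gm11508 had 0 to 4 counts per library in its gene row and was not tested, and 2010015M23Rik was not analysed here. Srsf6 and Srsf9 have no annotated neighbour that overlaps them or lies within 5000 bases upstream.

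Gene counts of the SR genes moved little and mostly downwards. In the mean of the 3 Zcchc8 KO clones, 5 of 10 were called lower and 0 higher by edgeR, where 19.9% of the 15297 genes tested were lower and 16.2% higher, and 25.4% of the protein-coding genes were lower. DESeq2 also called 5 lower and 0 higher. At an unadjusted p under 0.05 edgeR gave no further member in the higher direction. The median log2 fold change of the members was -0.13 against -0.01 over all genes. Without wild-type replicate 1 the count was 3 lower and 0 higher, against 18.7% and 17.5% of genes. Without composition scaling it was also 3 lower, and there the calls over all genes were 3229 higher and 2005 lower in place of 2474 and 3046. With cell lines as the replicates, and wild type and the Btbd7 KO together as controls, 0 members were called lower. Over all genes 927 were then higher and 165 lower.

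**Figure D4:**
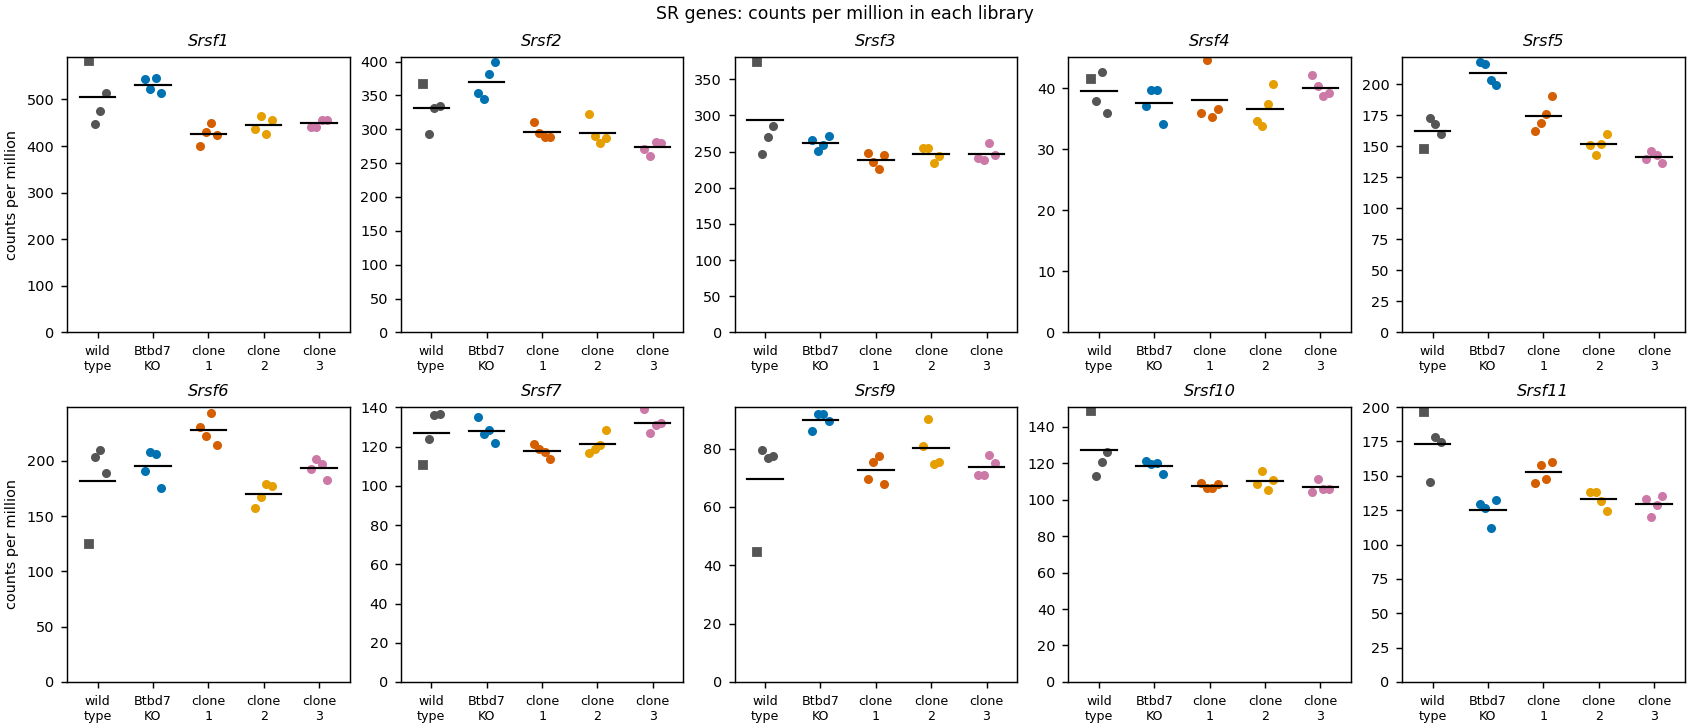
Gene level in CPM for each SR gene, 1 panel a gene with its own vertical axis from 0; each point is 1 library of wild type, the Btbd7 KO or Zcchc8 KO clone 1, 2 or 3 (4 each), the square is wild-type replicate 1 and the bar is the group mean. The square lies outside the other 3 wild-type points for 9 of the 10 genes, as for Srsf9 at 44.6 against 76.6 to 79.6, and did so for 77.4% of all tested genes. Wild-type replicate 2 lay outside its rest for 7 of the 10 and 48.5% of all tested genes.

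Srsf11 had the largest change in gene counts. The wild-type libraries stood at 196, 146, 178 and 174 CPM, the Btbd7 KO libraries at 130, 126, 112 and 133, clone 1 at 144, 158, 148 and 160, clone 2 at 138, 138, 132 and 124, and clone 3 at 133, 120, 129 and 135. Clones 2 and 3 and the Btbd7 KO lay below every wild-type library, and clone 1 overlapped the lowest wild-type library. The log2 fold change was -0.33 (edgeR adjusted p = 0.000103, SE 0.06) in the Zcchc8 KO mean and -0.25 (adjusted p = 0.000532) without wild-type replicate 1. The clones differed, at -0.18, -0.38 and -0.42 (edgeR adjusted p = 0.036). The Btbd7 KO gave -0.47 (edgeR adjusted p = 7.04e-05, SE 0.07), and with the Btbd7 KO as the control the Zcchc8 KO was at 0.14 (adjusted p = 0.0766), which turns the direction and ends the call. Srsf11 was called lower in clones 2 and 3 and in the Btbd7 KO, and missed the threshold in clone 1 (edgeR adjusted p = 0.0565).

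Srsf10 stood at 149, 113, 121 and 126 CPM in wild type and between 104 and 115 CPM in the 12 Zcchc8 KO libraries, with a median of 108. Only the highest Zcchc8 KO library reached the lowest wild-type library. The log2 fold change was -0.23 (edgeR adjusted p = 0.00117, SE 0.05), and -0.13 (adjusted p = 0.0318) without wild-type replicate 1. With the Btbd7 KO as the control it was also -0.13 (adjusted p = 0.0517), which ends the call. Srsf2 stood at 367, 293, 331 and 334 CPM in wild type and at 261, 287 and 322 CPM as the lowest, median and highest Zcchc8 KO library. Its log2 fold change was -0.21 (edgeR adjusted p = 0.00265, SE 0.05), and -0.13 (adjusted p = 0.0266) without wild-type replicate 1. Without composition scaling Srsf2 was at -0.13 (adjusted p = 0.0587), which ends that call.

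In the mean of the clones, Srsf1 and Srsf3 were called only with wild-type replicate 1 in the fit. Srsf1 stood at 582, 448, 475 and 513 CPM in wild type and between 400 and 464 CPM in the Zcchc8 KO, a log2 change of -0.20 (SE 0.05; edgeR adjusted p = 0.00278) that became -0.10 (adjusted p = 0.0552) without that library. Srsf3 stood at 373, 246, 270 and 286 CPM in wild type and between 226 and 262 CPM in the Zcchc8 KO, a log2 change of -0.27 (SE 0.07; edgeR adjusted p = 0.00215) that became -0.11 (adjusted p = 0.0506). In clone 1 alone both calls remained without that library (edgeR adjusted p = 0.0201 and 0.0401). The Srsf1 call in the mean was also lost without composition scaling (adjusted p = 0.0596), and that of Srsf3 with the Btbd7 KO as the control (adjusted p = 0.239). In both genes replicate 1 was the highest wild-type library. Srsf1, Srsf2, Srsf3 and Srsf10 were called lower in the mean and in each clone, and none of them kept all of these calls without wild-type replicate 1. The share of all genes that meet this joint rule was not computed.

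**Figure D5:**
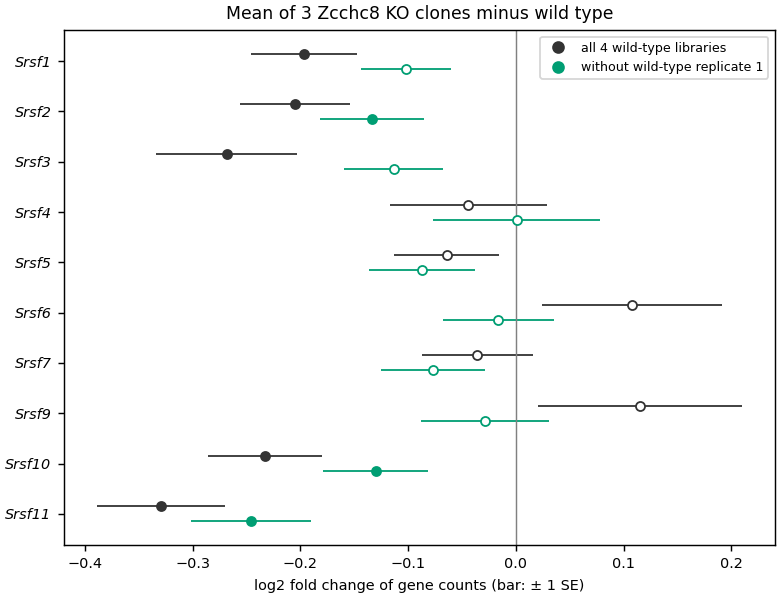
Log2 fold change of gene counts in the mean of the 3 Zcchc8 KO clones with all 4 wild-type libraries (black) and without wild-type replicate 1 (green), bars of 1 SE, filled where the edgeR adjusted p is under 0.05. Srsf1 and Srsf3 lose their fill without that library, and Srsf2, Srsf10 and Srsf11 keep it.

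The other 5 members were not called in the Zcchc8 KO mean. Their log2 fold changes were -0.04 for Srsf4, -0.06 for Srsf5, 0.11 for Srsf6, -0.04 for Srsf7 and 0.12 for Srsf9, with edgeR adjusted p-values from 0.329 to 0.68. Without wild-type replicate 1 they lay between -0.09 and 0.00, and Srsf6 and Srsf9 were then at -0.02 and -0.03. Srsf6 and Srsf5 nevertheless differed between the clones. Srsf6 stood at 228 ± 12.4, 171 ± 10.1 and 193 ± 8.18 CPM in clones 1, 2 and 3 (SD, n = 4 each), with log2 fold changes of 0.32, -0.09 and 0.09 against wild type (edgeR adjusted p for a difference between clones = 0.00913), and all clone 1 libraries were above all libraries of the other clones. Without wild-type replicate 1, the lowest wild-type library at 125 CPM, the values were 0.20, -0.21 and -0.05, and clone 2 was then called lower (edgeR adjusted p = 0.0074). In clone 1 alone Srsf6 was the 1 member called higher, where 16.7% of genes were (edgeR adjusted p = 0.0147). Srsf5 stood at 174 ± 12, 152 ± 6.80 and 142 ± 4.28 CPM in clones 1, 2 and 3, with log2 fold changes of 0.10, -0.10 and -0.20 (edgeR adjusted p for a difference = 0.0012). The test of equal clones called 28.5% of all genes. The clones called 4, 5 and 6 members lower, where 19.1%, 16.2% and 15.3% of genes were lower. They called 2, 2 and 4 lower without wild-type replicate 1, where 19.4%, 15.5% and 16.1% of genes were.

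In the Btbd7 KO, edgeR called 2 of 10 members higher and 1 lower, where 7.73% of genes were higher and 8% lower. Srsf5 stood at 218, 216, 204 and 199 CPM there against 148, 173, 168 and 160 in wild type, with no overlap and a log2 change of 0.37 (SE 0.06; edgeR adjusted p = 9.53e-05). Srsf9 stood at 86.0, 92.0, 91.8 and 89.4 CPM against 44.6, 79.6, 76.6 and 77.5, a log2 change of 0.37 (SE 0.11; edgeR adjusted p = 0.0288). The Srsf9 call was lost with only these groups in the fit (adjusted p = 0.179) and without Btbd7 KO replicate 2, 3 or 4 (adjusted p = 0.0672, 0.0626 and 0.0574). Without wild-type replicate 1, the library at 44.6, Srsf9 was at 0.21 (adjusted p = 0.0298), and Srsf1 and Srsf2 were called higher as well, at 0.16 (adjusted p = 0.0212) and 0.22 (adjusted p = 0.00514). That made 4 members higher and 1 lower, where 8.93% and 8.23% of genes were. The lower gene was Srsf11. Without wild-type replicate 2, Srsf3 was called lower in the Btbd7 KO at -0.24 (adjusted p = 0.0243). With the Btbd7 KO as the control, 4 members were called lower in the Zcchc8 KO, namely Srsf1, Srsf2, Srsf5 and Srsf9, where 22.2% of genes were.

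Summed over the 10 genes, the gene counts came to 1864 to 2136 CPM in the wild-type libraries, 2047 to 2091 in the Btbd7 KO, and 1741 to 1869 over the 12 Zcchc8 KO libraries. Per kilobase of exon in wild type, Srsf2 stood highest at 112 ± 10.2 CPM per kilobase (SD, n = 4) and Srsf1 next at 88.3 ± 10.2. Srsf9 at 42.1 ± 10.1, Srsf5 at 40.7 ± 2.72, Srsf6 at 37.8 ± 8.13, Srsf3 at 37.2 ± 7.01 and Srsf7 at 35.7 ± 3.49 did not differ from their neighbours in the order beyond their spread. Srsf11 at 20.5 ± 2.48 and Srsf10 at 18.2 ± 2.19 also overlapped, and Srsf4 was lowest at 11.1 ± 0.881. With the longest transcript as the length in place of the merged exons, Srsf2, Srsf1, Srsf10 and Srsf4 kept their places and Srsf3 and Srsf11 moved up to the third and the fourth, at 73.3 and 55.9 CPM per kilobase. In bulk libraries fewer cells and less RNA per cell cannot be told apart.

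Genes that act with SR proteins were counted in the same way, to be read against the 57.9% of PROMPT regions higher and 25.4% of genes lower among protein-coding genes. Of the SR kinases and the SR import receptor, 5 of 9 PROMPT regions tested were called higher and 0 lower, and 3 of 9 genes were called lower and 0 higher. Among SR-related splicing proteins 15 of 16 PROMPT regions were higher, and 6 of 17 genes were lower and 0 higher. For the hnRNP genes, whose products often oppose SR proteins at exons, 15 of 22 PROMPT regions were higher, and 10 of 24 genes were lower and 0 higher. For factors of nonsense-mediated decay the counts were 7 of 8 PROMPT regions higher and 3 of 10 genes lower. The PROMPT medians were 2.57, 3.07, 1.61 and 1.17 on the log2 scale, and the gene medians -0.09, -0.08, -0.12 and 0.01. Over all genes tested 16.2% were called higher. Without wild-type replicate 1 the genes called lower were 2, 4, 7 and 2, and those called higher 1, 1, 0 and 1, where 18.7% of all genes were lower and 17.5% higher. In the Btbd7 KO no PROMPT region of these lists was called by edgeR, where 3.04% of all regions were called.

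Tra2b, a splicing activator close to the SR family, had a PROMPT of 0.127 ± 0.118 CPM in wild type (SD, n = 3) and of 5.49 ± 0.861, 4.89 ± 1.12 and 6.25 ± 1.10 CPM in the clones, a log2 change of 5.35 (SE 0.43; edgeR adjusted p = 8.74e-17) from 6 wild-type counts. Luc7l3, a partner of the U1 snRNP, went from 0.485 ± 0.199 CPM to 13.8 ± 1.41, 13.7 ± 1.62 and 11.1 ± 2.31 CPM, a log2 fold change of 4.66. Tnpo3, the import receptor of SR proteins, rose by 4.63 on the log2 scale from 4 wild-type counts, and Prpf4b, a kinase of the spliceosome, by 3.77. The PROMPT of Hnrnpc rose by 4.82 from 6 wild-type counts, and that of Hnrnpll gave 255 KO counts against 1 in wild type, a ratio of 96.5 with an exact 95% interval of 17.2 to 3826. Upf2 and Upf1, core factors of nonsense-mediated decay, rose by 4.15 and 2.19. In gene counts U2af1, the small subunit of the factor that reads the 3′ splice site, fell from 63.2 ± 1.08 CPM in wild type (SD, n = 4) to 48.8 ± 4.50, 48.6 ± 3.56 and 49.6 ± 1.75 CPM, a log2 change of -0.37 (SE 0.06; edgeR adjusted p = 3.04e-05) that was -0.35 without wild-type replicate 1. Hnrnpab fell by 0.33 and Hnrnpc by 0.32 on the log2 scale in gene counts, and without that library by 0.31 and 0.22.

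The 3 genes whose gene counts were most like those of Srsf11 over the 20 libraries were Zhx2, Cav2 and Ano6. Their centred log2 CPM differed from that of Srsf11 by a root mean square of 0.0943, 0.0954 and 0.0958, against a root mean square of 0.197 for Srsf11 about its own mean. Their log2 fold changes were -0.30, -0.30 and -0.28 in the Zcchc8 KO mean and -0.43, -0.46 and -0.36 in the Btbd7 KO. The likeness rests on 5 groups that share library preparation, and it is a description of these libraries.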

How the data were processed

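The authors deposited raw counts per gene and per PROMPT region, whole numbers. Reads were aligned with STAR 2.7.3a and checked with FastQC, per the submitters' processing notes. The counter, annotation, genome build and strand setting are not given in the sources used here, so reads of overlapping genes on opposite strands may not be told apart. Of 55471 identifiers, 54573 matched GENCODE M21 with their version. Members and gene lists were chosen with earlier results of these data known. Counts were fitted with edgeR 4.0.16 (R 4.3.3), quasi-likelihood, 1 mean per group over all libraries of a table, filterByExpr, and TMM factors from all genes of the gene table, also used for PROMPT counts. CPM use these effective sizes. A feature was called at an adjusted p under 0.05. DESeq2 1.42.0 was an alternative. The fit was also run on simulated counts with known changes shared by all Zcchc8 KO libraries. Those counts held no differences between clones, so the run does not check the fit where clones differ. Named genes were all 10 SR genes, both edited genes, up to 2 per list and direction called in the mean and each clone with the largest fold change, and the 3 genes most like the SR gene with the largest change in gene counts. Neighbours were taken by position.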

Additional observations from a re-analysis of the deposited data

Results flagged for a closer look

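Of 90 groups of 4 libraries checked for a library far from the rest, 4 held one, and chance flags about 1 in 20. Srsf9 gene counts in wild-type replicate 1 were 44.6 CPM, with the other 3 libraries between 76.6 and 79.6. Srsf4 gene counts in clone 1 replicate 2 were 44.5 CPM against at most 36.6 in the others. The Srsf11 PROMPT in clone 2 replicate 4 was 0.975 CPM against at most 0.719. The Srsf6 PROMPT in Btbd7 KO replicate 1 was 0.0599 CPM, which is 1 count, against 0 in the other 3.

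The Zcchc8 KO clones differed from each other by edgeR's test at Srsf10 in PROMPT counts (adjusted p = 0.000651) and at Srsf5 (0.0012), Srsf6 (0.00913) and Srsf11 (0.036) in gene counts. These tests compare the clones directly, so the wild-type libraries do not enter the differences. They do enter the shared estimate of the spread, and through it the p-values. Clone 1 was the highest clone in all 4 cases. Its libraries were also shallow, at 6833258 to 7683444 gene counts. Clone 2 had 7053304 to 16994115 and clone 3 had 7578027 to 14593557. Whether depth bears on these differences between clones was not tested.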

How the results depend on the processing

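Of the SR calls in the Zcchc8 KO mean, the PROMPT count of 9 higher stayed within 8 to 9 under every alternative run, and the gene count of 5 lower became 3 without TMM factors, 0 with cell lines as the replicates, and 3 to 5 when single libraries were left out. Sign changes in gene counts of members without a call were Srsf4 at 0.035 without TMM factors, 0.026 with the Btbd7 KO as control and 0.013 on thinned counts, Srsf5 at 0.014 and Srsf7 at 0.042 without TMM factors, and Srsf9 at -0.25 with the Btbd7 KO as control and -0.11 with cell lines as replicates. Srsf11, a call, became 0.14 with the Btbd7 KO as control, where its PROMPT, not a call, became 0.32. Leaving out single libraries moved gene values in the Zcchc8 KO between -0.068 and 0.00088 for Srsf4, -0.017 and 0.19 for Srsf6, -0.077 and 0.023 for Srsf7 and -0.029 and 0.19 for Srsf9. In the Btbd7 KO it moved them between -0.031 and 0.18 for Srsf6 and -0.038 and 0.062 for Srsf7, and PROMPT values between -0.25 and 0.031 for Srsf2, -0.16 and 0.36 for Srsf4, -2.75 and 1.47 for Srsf6 and -0.35 and 0.32 for Srsf10. Over all genes the Zcchc8 KO counts became 927 higher and 165 lower with cell lines as replicates and 2005 lower without TMM factors. In the Btbd7 KO with only the groups compared they became 596 higher and 641 lower, with 1 SR gene higher, and leaving out libraries gave 1 to 4 SR genes higher and 1 to 2 lower. PROMPT regions called lower in the Zcchc8 KO became 1018 with the Btbd7 KO as control, 3665 with TMM within the PROMPT table and 196 with cell lines as replicates. PROMPT calls in the Btbd7 KO became 119 higher and 173 lower on thinned counts, 158 and 164 with only the groups compared, and 153 to 272 and 180 to 294 when libraries were left out. The cause of these changes was not tested. Same-numbered libraries did not deviate together (median r -0.001, range -0.087 to 0.15 over 40 pairs), so numbers were not taken to pair them, and with the replicate number as a block the SR counts were still 5 genes lower and 9 PROMPT regions higher, of 2973 genes lower and 6801 regions higher in all. Sparse wild-type PROMPT counts, 3 to 30 in all for Srsf3, Srsf5, Srsf6 and Srsf7, limit the precision of their fold changes.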
